A study of Mus musculus with 2 samples.

Results

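Postn and 9 further non-collagen matrix genes (Fn1, Vcan, Has2, Sparc, Fbn2, Hapln1, Lama1, Lamb1 and Lamc1) were described in single cells of the mouse cardiac neural crest region at E9.5. They were picked by name and make up 10 of the 18131 genes measured in both libraries. The choice was made with their values in view, so all levels and ratios below are descriptions. Embryos of strain C57BL/6 were taken at E9.5, with intact Prdm6 (genotype Prdm6+/+) in the WT group and floxed Prdm6 (Prdm6f/f) in the KO group. Every embryo of either group also carried Wnt1-Cre2, a Cre under the Wnt1 promoter, and ZsGreen1, a Cre-activated green reporter. Cre acts in the Wnt1 lineage (the dorsal neural tube and the neural crest), so cells outside that lineage are not targeted by design. Prdm6 encodes a PRDM family chromatin regulator, and its deletion in single cells was not measured here. The dissected tissue, from the otic placode to the fourth somite, was not sorted, and each genotype is 1 library with no map from cells to embryos. Genotype and library cannot be told apart, no test between genotypes was possible, and all intervals are 95% intervals of counting error.

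The extracellular matrix is the secreted scaffold around embryonic cells. Fibronectin and laminins give migrating neural crest cells an adhesive path that integrins read, whereas hyaluronan and the proteoglycan versican swell the cardiac jelly of the early heart. Matricellular proteins such as periostin and SPARC change how cells grip collagen, and fibrillins form the microfibrils on which elastic fibres are later built.

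The WT library held 11958 cells with 20781384 unique molecular identifiers (UMIs, single captured RNA molecules) and the KO library 9765 cells with 18936857. The median cell had 1597 UMIs in WT and 1703 in KO. The 2 libraries shared 26 cell barcodes, 0.217% of WT and 0.266% of KO cells. Prdm6 itself was sparse, with 104 UMIs in WT and 59 in KO (log2 ratio −0.68, −1.17 to −0.21), and 3′ counting does not show whether a transcript holds the floxed exon. Levels are CPM, the gene's UMIs scaled to the total UMIs of the same cells, a 3′ count that is not scaled by gene length, so they are compared between cells and libraries rather than between genes.

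Cells were assigned to classes by gates of marker genes that include none of the 10 genes. Of 19 gates, 13 held at least 50 cells in each library and 10 of these could be named, because at least 3 separate check markers were raised at least 2-fold in both libraries. The labels call all cells cardiac neural crest cells, but 1.94% of WT and 1.75% of KO cells were migrating neural crest-like (gated on Sox10, Foxd3, Erbb3 and other markers). Cardiac muscle-like, endothelial-like, erythroid-like, neural and mesoderm-like cells were present beside them, and 53.1% of WT and 58.5% of KO cells passed no gate. The gates are ranges and not sharp types: of the 590 WT splanchnic mesoderm-like cells, 390 carried exactly 2 gate genes, and a further 1187 WT cells were 1 gate gene short. In KO, 251 of 396 cells lay at the gate and 875 were 1 gene short. The median cell of this class had 0 gate genes of any other class in either library, whereas the median cardiac muscle-like cell also had 2 gate genes of another class.

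Postn (ENSMUSG00000027750) encodes periostin, a secreted matricellular protein of fibroblasts, valves and bone-forming membranes that binds integrins and collagen. The gene lies at chr3:54361109-54391037 on the plus strand of GRCm38, the build the files use, and no other annotated gene overlaps it. The 250 bases before its start are printed because Postn is the gene on which the comparison turns, with a TATAAA match, 26 bases before the start, in capitals.
Postn chr3:54360857-54361106, plus strand, GRCm38 (RefSeq start): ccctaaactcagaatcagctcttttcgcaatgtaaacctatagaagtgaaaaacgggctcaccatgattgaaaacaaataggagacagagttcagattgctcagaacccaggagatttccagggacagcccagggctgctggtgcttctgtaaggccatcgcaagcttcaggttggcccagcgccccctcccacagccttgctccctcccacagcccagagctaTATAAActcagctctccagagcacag
TATAAA was found on either strand in 12.4% of 32851 mouse promoter windows of this length. The window held no AGATAA (9.99% of windows), no match to the letters GGGCGG (32.7%) and none to the letters CAGCTG (13%), each searched on both strands. Of the 10 genes, 5 had a window in the table. Vcan and Lamb1 each had 2 matches to GGGCGG, Sparc had 1 to CAGCTG, and Hapln1 and a second, upstream Postn start had no match to any of the 4 motifs.

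Over all cells, Postn had 811 UMIs in WT and 262 in KO. Its level was 39.0 CPM in WT (36.4 to 41.8) and 13.8 CPM in KO (12.2 to 15.6), so the WT and KO intervals did not overlap. As a log2 ratio (KO over WT throughout) that is −1.50 (−1.70 to −1.29). These Postn intervals treat UMIs as independent, but 59 WT and 20 KO cells held 47.2% and 51.9% of them, so they are too narrow. Of 10513 genes with at least 200 UMIs in both libraries together, 5 had a lower ratio, and Postn ranked at position 6. The median of those genes was −0.06, with a 5th percentile of −0.44 and a 95th of 0.30. Postn was the 1 of the 10 genes that was at least 1.5-fold lower in KO, against 2.02% of all genes, and 0 of the 10 were at least 1.5-fold higher, against 0.371%. Those shares stand for 212 lower and 39 higher genes, or 145 and 57 after scaling by a trimmed mean of log ratios.

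**Figure D1:**
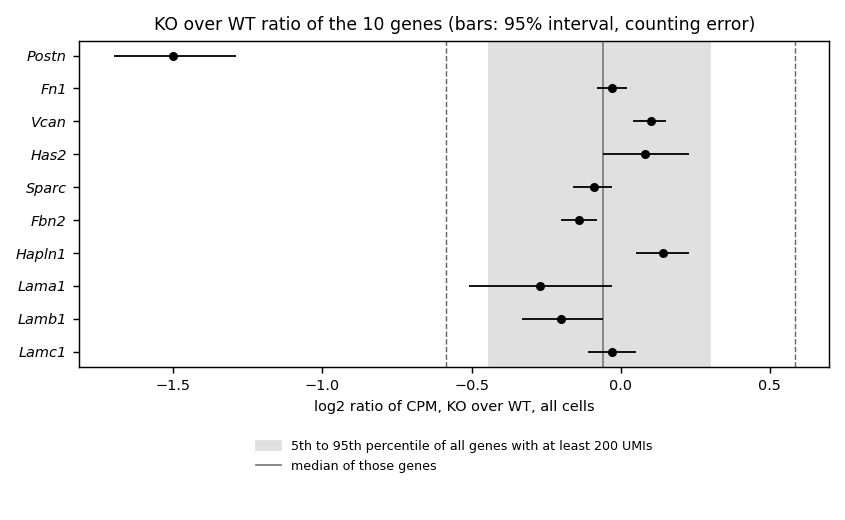
Log2 ratio of CPM of KO over WT in all cells (horizontal axis) for each of the 10 genes (vertical axis). Points are ratios, bars 95% intervals of counting error, dashed lines mark 1.5-fold, and the grey band spans −0.44 to 0.30, the 5th to 95th percentile of 10513 genes. Postn lies at −1.50, left of the band, and the other 9 genes lie inside it.

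The other 9 genes stayed close to the bulk of the transcriptome. Fn1 stood at 362 CPM (WT) and 354 CPM (KO), Vcan at 271 and 289, Has2 at 36.8 and 39.0, and Hapln1 at 92.5 and 102. Their log2 ratios were −0.03 (−0.08 to 0.02), 0.10 (0.04 to 0.15), 0.08 (−0.06 to 0.23) and 0.14 (0.05 to 0.23). After thinning to 1000 UMIs, Fn1 was at −0.17 (−0.24 to −0.10), while the intervals of Vcan (0.06, −0.02 to 0.13) and Hapln1 (0.07, −0.06 to 0.20) reached 0. Lamc1 moved most, to −0.26 (−0.38 to −0.14). Sparc was at 194 and 182 CPM, Fbn2 at 231 and 210, Lama1 at 16.2 and 13.4, Lamb1 at 48.6 and 42.3, and Lamc1 at 120 and 118. Their ratios were −0.09 (−0.16 to −0.03), −0.14 (−0.20 to −0.08), −0.27 (−0.51 to −0.03), −0.20 (−0.33 to −0.06) and −0.03 (−0.11 to 0.05). The median ratio of all 10 genes was −0.06, the same as that of all genes. Scaling by a trimmed mean of log ratios raised every ratio by 0.06, which turned Fn1 and Lamc1 from −0.03 to 0.03 and left the sign of the other 8 as it was.

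Orders and ratios of classes below cover the 10 named classes alone, and values of gates that were not named are given beside some of them; such gates can stand higher than the named classes. Among the named classes, Postn was highest in splanchnic mesoderm-like cells, the class gated on Foxf1, Hand1, Hand2, Gata4, Gata5, Gata6 and other markers of the mesoderm around heart and gut. It had 235 UMIs there in WT and 47 in KO, or 207 CPM (181 to 235) and 52.3 CPM (38.4 to 69.5). In the same class 12.2% of WT cells (9.67 to 15.1) and 3.28% of KO cells (1.76 to 5.55) held a Postn UMI, at median depths of 1789 and 2172.5 UMIs. The ratio in this class was −1.98 (−2.47 to −1.53), but it was −3.03 (−4.51 to −1.84) with cells thinned to 1000 UMIs and −2.56 (−3.52 to −1.71) with a gate of 3 genes. These intervals treat UMIs as independent. Of the class, 30 WT and 7 KO cells held at least 3 Postn UMIs each, so the intervals are too narrow. As reported, 5.46% of the 6427 genes with at least 50 UMIs in the class were at least 1.5-fold lower and 2.97% at least 1.5-fold higher. Postn was the 1 of 9 members with that many UMIs that passed 1.5-fold there.

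The remaining 9 named classes had low Postn levels. In WT they ran from 16.9 CPM in floor plate-like to 40.1 CPM in dorsal neural tube and roof plate-like cells, and no neighbours in that order had intervals apart. The 7 UMIs of the dorsal neural tube and roof plate-like cells came from 1 cell. Erythroid-like cells, which should not make periostin, stood at 17.1 CPM in WT (20 UMIs, in 3.42% of 585 cells at a median of 1882 UMIs), within that range. In KO, erythroid-like cells had 0 Postn UMIs in 245 cells at a median of 2345 UMIs, where a count of 0 allows a share of cells with a UMI of up to 1.22% (3 cells), and the exact 95% interval reaches 1.49%. The KO level of cardiac muscle-like, endothelial-like, migrating neural crest-like and floor plate-like cells was 4.50 to 7.06 CPM. The KO intervals of splanchnic mesoderm-like and neuron-like cells (33.8 CPM) overlapped. The low Postn level of erythroid-like cells thus also differed between the libraries, and its part in the ratios was not tested. Subtracting the level of erythroid-like cells left the splanchnic mesoderm-like ratio at −1.86.

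Ratios of the low classes pointed the same way with 1 exception. In cardiac muscle-like cells 42 Postn UMIs (WT) stood against 6 (KO), a log2 ratio of −2.41 (−3.94 to −1.17), and in endothelial-like cells 21 against 7, or −1.40 (−2.88 to −0.11). The erythroid-like class held 20 WT and 0 KO UMIs, a ratio of −1.73 with the KO class set at a floor of 3 UMIs. The exact interval of that ratio lies below −1.30. Migrating neural crest-like cells, which are of the Wnt1 lineage, held 12 and 3 UMIs, a ratio of −1.84 (−4.30 to 0.05) whose interval reaches 0. Dorsal neural tube and roof plate-like cells had 7 and 0, sclerotome and somite-like cells 7 and 0, dermomyotome and early myogenic-like cells 4 and 0, and floor plate-like cells 7 and 2. Neuron-like cells were the exception with 6 UMIs in WT and 12 in KO (0.80, −0.72 to 2.50), and 9 of those 12 came from 1 cell. Of the gates not named, the smooth muscle gate (36 cells in WT and 29 in KO) held 21 Postn UMIs from 4 cells in WT and 1 UMI in KO, or 327 CPM (203 to 500.2) and 17.4 CPM. With 4 cells behind the WT value, its interval is too narrow. The surface ectoderm gate (24 and 30 cells) held 1 UMI in WT and 17 in KO, all 17 from 1 cell, and the head mesenchyme gate (410 and 315 cells) 20 and 3.

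**Figure D2:**
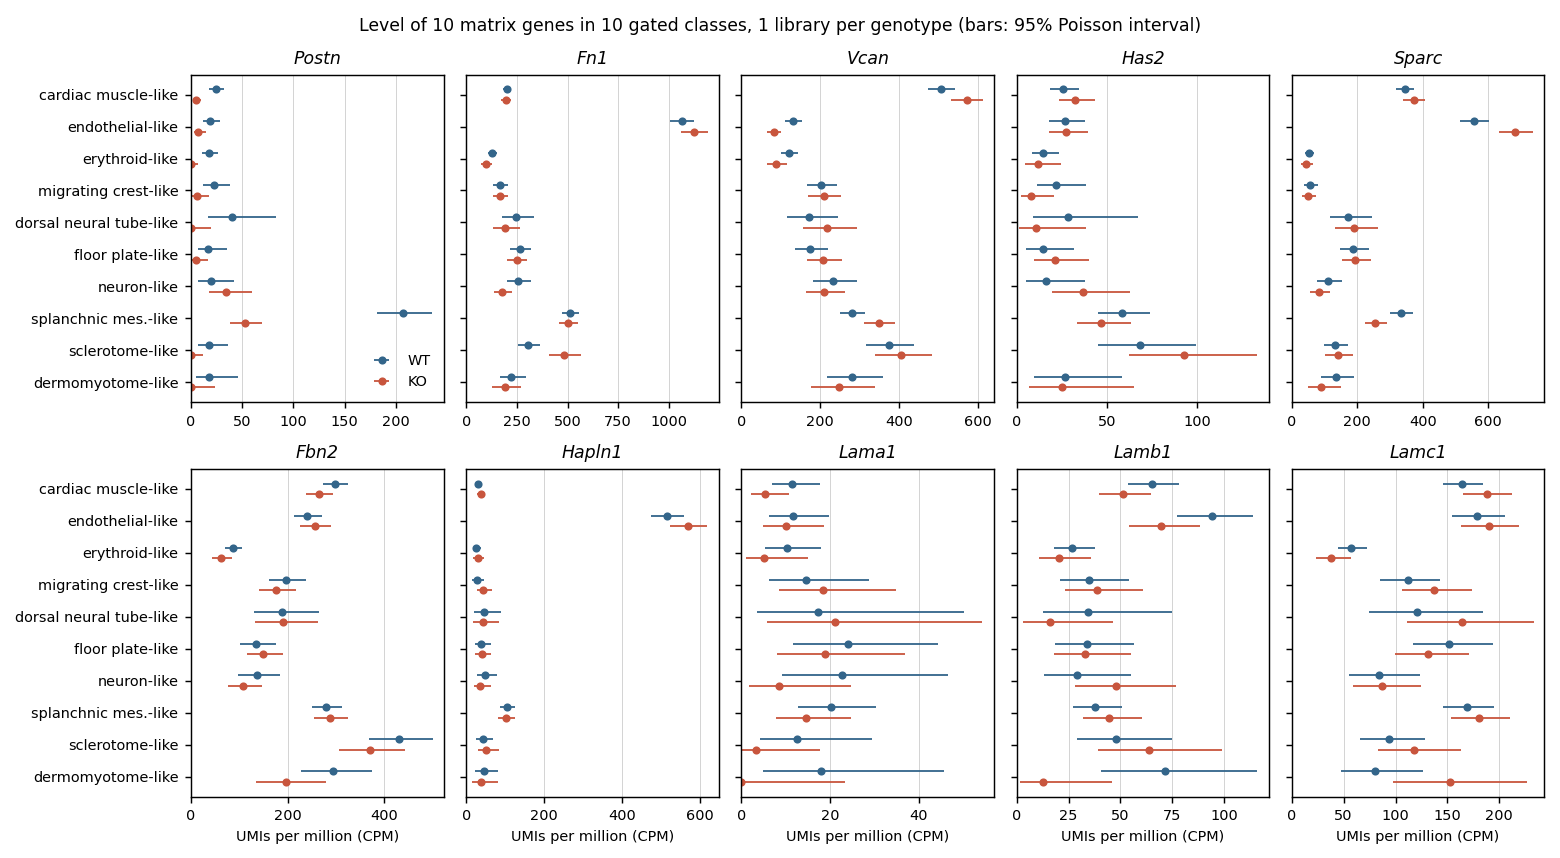
Level of each of the 10 genes in CPM (horizontal axis, own scale per panel) in the 10 named classes (vertical axis), WT in blue and KO in red, 1 library each. Points are levels and bars 95% Poisson intervals; Postn is at 207 CPM in WT and 52.3 CPM in KO splanchnic mesoderm-like cells, while Fn1, Sparc and Hapln1 peak in endothelial-like cells of both libraries and Vcan in cardiac muscle-like cells.

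The Postn ratio was close to −1.50 at fixed class sizes too. The cells that passed no gate, with 41.7% of WT and 56.1% of KO Postn UMIs, entered as 1 part, so their own make-up was not held fixed. Nor was the make-up within a class. Among splanchnic mesoderm-like cells, 30 of 590 in WT and 7 of 396 in KO held at least 3 Postn UMIs. With each class weighted by its WT share of UMIs the log2 ratio was −1.58, and with KO shares −1.48. Class shares alone, at WT levels, moved Postn by −0.02. For the other 9 genes the same step moved the ratio by −0.02 to 0.03.

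Few cells held a large share of the Postn UMIs. Cells with at least 3 Postn UMIs numbered 59 of 11958 in WT (0.493%, 0.376 to 0.636) and 20 of 9765 in KO (0.205%, 0.125 to 0.316), a share 2.41-fold lower in KO. They held 383 of the WT Postn UMIs (47.2%) and 136 of the KO ones (51.9%), with a median of 5 per cell in both libraries and a maximum of 25 in WT and 17 in KO. Their Postn level was 2988 CPM in WT (2696 to 3303) and 2549 CPM in KO (2139 to 3015), a log2 ratio of −0.23 (−0.52 to 0.06). In all other cells Postn stood at 20.7 CPM in the WT library and 6.67 CPM in KO, a ratio of −1.63 (−1.93 to −1.35). The share of Postn-rich cells and the count outside them thus both differed by more than 1.5-fold, whereas the level within such cells, which were picked by that count, had overlapping intervals. These cells had a median depth of 2122 UMIs in WT and 2867.5 in KO.

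**Figure D3:**
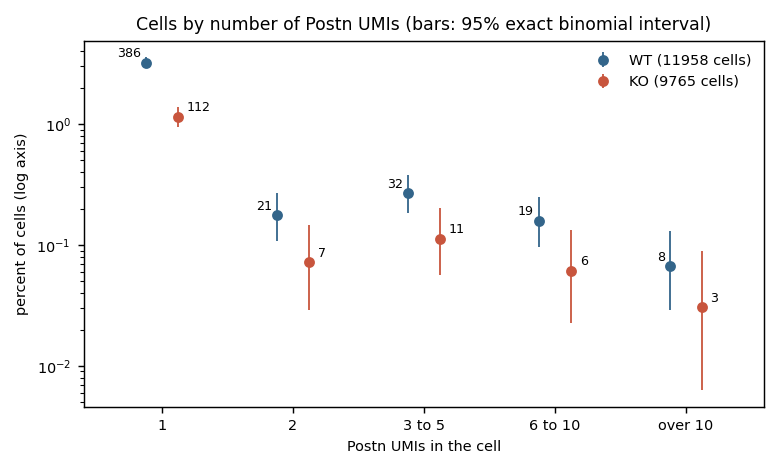
Percent of cells (vertical, log axis) by the number of Postn UMIs in the cell (horizontal axis), WT in blue and KO in red. Bars are exact 95% binomial intervals and the numbers are cell counts; the WT points lie above the KO points in all 5 bins, from 386 against 112 cells with 1 UMI to 8 against 3 cells with over 10.

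Of the 59 WT cells with at least 3 Postn UMIs, 30 were splanchnic mesoderm-like, 17 passed no gate and 36 passed the splanchnic gate before cells of several gates were set aside. Of the 20 KO cells, 7 were splanchnic mesoderm-like and 10 passed no gate. Migrating neural crest-like cells made up 0 of the 59 and 0 of the 20. That class held 1.94% of all WT and 1.75% of all KO cells, so counts of 0 among so few cells do not show its absence. In KO 1 of the 20, with 17 Postn UMIs, passed the surface ectoderm gate, a class of 30 cells that is not named here. The leading genes of the WT cells over all other WT cells were Col1a1 and Col1a2 (type I collagen) at 6835 and 3066 CPM against 101 and 123 elsewhere, Col3a1 (type III collagen) at 2036 against 184, Lum (lumican, a collagen-binding proteoglycan) at 811 against 22.9, and Dlk1 (a Notch-related growth regulator) at 1873 against 203. Hand1, Sparc, Pf4, Ahnak and Col5a2 completed the leading 10. In KO, 9 of these 10 were also at least 2-fold higher in the Postn-rich cells, and the exception was Pf4, a megakaryocyte and macrophage gene with 54 UMIs in the WT and 0 in the KO cells. Of those 54 UMIs, 53 came from 1 cell, and 1 of the 59 cells passed the macrophage and megakaryocyte gate, so Pf4 does not describe the 59 cells. Col1a1, Col1a2, Col3a1 and Dlk1 were each found in at least 57 of them. Hand1 is also a gate gene of the splanchnic class. The limit of 3 UMIs and these 10 genes were chosen after the values were seen, the genes by their WT ratio.

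**Figure D4:**
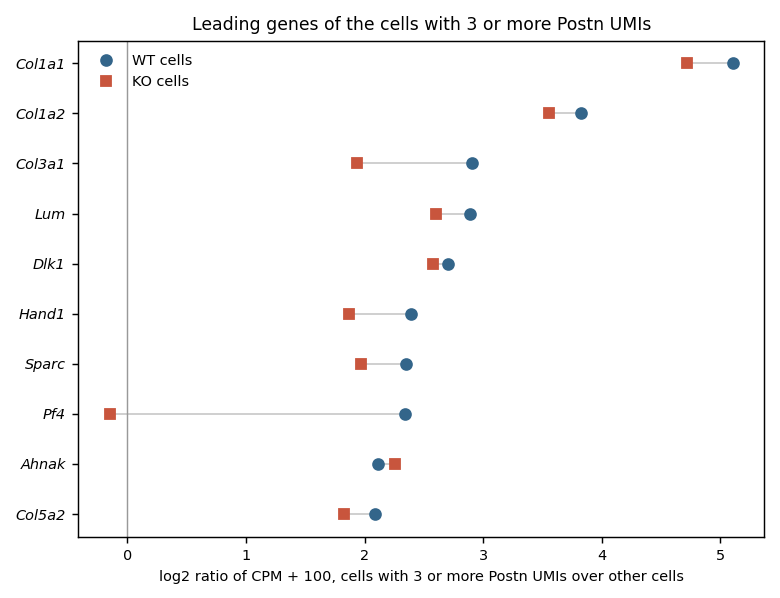
Log2 ratio of CPM with 100 CPM added (horizontal axis) between cells with at least 3 Postn UMIs and all other cells of the same library, for the 10 genes that lead in WT (vertical axis). WT circles run from 2.09 (Col5a2) to 5.11 (Col1a1), and KO squares lie at 1.83 or more except Pf4 at −0.15.

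Over the 13 cell types with at least 50 cells in each library, the genes whose profile was most like that of Postn among 10393 genes were Bnc1, a zinc finger factor of squamous epithelium, mesothelium and germ cells (Pearson's r 0.76 in WT and 0.77 in KO), Shisa3 (0.68 and 0.72) and Barx1, a homeobox factor of gut mesenchyme (0.88 and 0.67). The points of such a correlation share a library, so these values are descriptions over 13 points. Barx1 is one of the check markers of the splanchnic class. Over all cells, where 2.02% of genes were at least 1.5-fold lower, all 3 were past that fold as well, with Bnc1 at 251 and 120 UMIs (−0.93, −1.26 to −0.61), Shisa3 at 430 and 231 (−0.76, −1.0 to −0.53) and Barx1 at 428 and 238 (−0.71, −0.95 to −0.48). Within splanchnic mesoderm-like cells the ratio was −0.73 (−1.43 to −0.07) for Bnc1, but Shisa3 stood at 71.3 CPM in WT and 71.2 in KO and Barx1 at 98.5 and 91.2 (−0.11, −0.54 to 0.31), while Postn was at −1.98 there. The profile of Postn correlated between WT and KO at r = 0.66.

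Sparc, the second matricellular gene, encodes a secreted collagen-binding protein of endothelium and mesenchyme. The gene lies at chr11:55394500-55423183 on the minus strand. Among the named classes Sparc was highest in endothelial-like cells, at 558 CPM in WT (515 to 603) and 683 in KO (633 to 737), against 52.3 and 44.7 CPM in erythroid-like cells. Cardiac muscle-like cells followed at 345 and 372 CPM and splanchnic mesoderm-like cells at 334 and 255. The ratio was 0.29 (0.13 to 0.45) in endothelial-like and −0.39 (−0.64 to −0.15) in splanchnic mesoderm-like cells. In the Postn-rich cells Sparc stood at 1365 CPM in WT and 993 in KO. Its profile over cell types was the most repeatable of the 10 genes (r = 0.97 between libraries), and Plagl1, an imprinted zinc finger gene, was most like it (0.89 in WT, 0.88 in KO).

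Fn1 encodes fibronectin, the main integrin-binding glycoprotein on which crest cells migrate, and lies at chr1:71585520-71653200 on the minus strand. Endothelial-like cells held 1196 Fn1 UMIs in WT and 1113 in KO, or 1063 CPM (1004 to 1125) and 1123 CPM (1058 to 1191), and their intervals lay apart from those of all other named classes. Splanchnic mesoderm-like cells came next of the named classes at 513 and 502 CPM, and erythroid-like cells were lowest at 129 and 96.3. Fn1 counts in sclerotome and somite-like cells were 121 UMIs (WT) and 151 UMIs (KO), 305 and 482 CPM, a ratio of 0.66 (0.31 to 1.02), and 5.1% of 3100 genes in that class were at least 1.5-fold higher and 6.52% lower. In migrating neural crest-like cells Fn1 was at 166 CPM in WT (134 to 204) and 168 in KO (133 to 208), a ratio of 0.01 (−0.44 to 0.46). That interval overlapped the erythroid-like one in WT and lay above it in KO. The Postn-rich cells held 1100 CPM of Fn1 in WT and 731 in KO. Tax1bp3, a PDZ domain gene, had the profile most like Fn1 (0.87 in both libraries).

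Vcan, Has2 and Hapln1 belong to the hyaluronan matrix: Vcan encodes versican, Has2 the hyaluronan synthase of the embryonic heart, and Hapln1 the link protein that ties versican to hyaluronan. Vcan (chr13:89655312-89742509, minus strand) and Hapln1 (chr13:89539796-89611652, plus strand) are neighbours on chromosome 13, and Has2 lies at chr15:56665627-56694539 on the minus strand. Has2os, an RNA on the other strand, overlaps Has2. Genes or pseudogenes on the other strand also overlap Fn1, Vcan, Fbn2, Hapln1 and Lamc1, and Gm38009 overlaps Lamc1 on its own strand, so reads of these pairs may not be told apart where the counting did not separate them. Among the named classes Vcan was highest in cardiac muscle-like cells, at 507 CPM in WT (474 to 542) and 571 in KO (532 to 614), both apart from the next named class, sclerotome and somite-like cells at 373 and 406. The head mesenchyme gate stood between them at 442 CPM in WT (394 to 494) and 523 in KO (469 to 582). The smooth muscle gate was at 312 CPM in WT (20 UMIs) and 645 CPM in its 29 KO cells (37 UMIs, 454 to 890). That KO interval overlaps the cardiac muscle-like one, and the ratio of the gate was 1.05 (0.23 to 1.91). Among the named classes, Vcan was lowest in erythroid-like cells, at 121 and 87.7 CPM, and in endothelial-like cells, at 131 and 81.7. In endothelial-like cells 147 UMIs in WT and 81 in KO gave a ratio of −0.68 (−1.09 to −0.28), with 4.62% of 6513 genes at least 1.5-fold lower there and 2.44% higher. The intervals of endothelial-like and erythroid-like cells overlapped in both libraries, so Vcan in endothelial-like cells could not be told from that background at this depth. Splanchnic mesoderm-like cells ran the other way, from 280 CPM in WT to 349 in KO (0.32, 0.09 to 0.55), with an interval that reached 0 after thinning (0.13, −0.28 to 0.53) and with a gate of 3 genes (0.28, −0.07 to 0.64), as did cardiac muscle-like cells (0.17, 0.03 to 0.31).

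Has2 was sparse, with 764 UMIs in WT and 738 in KO. Among the named classes it was highest in sclerotome and somite-like cells, at 68.1 CPM in WT (44.9 to 99.1) and 92.7 in KO (62.1 to 133), followed by splanchnic mesoderm-like cells at 58.1 and 46.7, and these neighbours had overlapping intervals. Both classes lay clear of erythroid-like cells at 14.6 and 12 CPM in both libraries. No named class gave a Has2 ratio with an interval clear of 0, whereas the head mesenchyme gate did (39 UMIs in WT, 61 in KO, 55.9 and 94.5 CPM, 0.76, 0.15 to 1.37). Among the named classes Hapln1 was highest in endothelial-like cells, with 579 UMIs in WT and 565 in KO, or 515 CPM (474 to 559) and 570 CPM (524 to 619). That was 20.03-fold and 19.5-fold the erythroid-like level, and the ratio was 0.15 (−0.02 to 0.32). Splanchnic mesoderm-like cells were the next named class at 105 and 102 CPM. The few cells of the surface ectoderm gate had 37 and 52 Hapln1 UMIs, 708 CPM in WT (498 to 976) and 613 in KO (458 to 804), and in the head mesenchyme gate Hapln1 went from 47.3 to 97.6 CPM (1.04, 0.41 to 1.70). The most similar profiles were those of Vegfb, a growth factor gene (0.87 in both libraries), for Vcan, Col3a1 (0.88 and 0.83) for Has2 and Calcrl, a gene for an adrenomedullin and calcitonin gene-related peptide receptor (0.94 in both), for Hapln1.

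Fbn2 encodes fibrillin-2, the fibrillin that dominates embryonic microfibrils. Among the named classes it was highest in sclerotome and somite-like cells, at 431 CPM in WT (369 to 501) and 371 in KO (306 to 445), apart from the next named class in WT but not in KO. The head mesenchyme gate stood at 410 and 407 CPM, with intervals that overlapped these. Cardiac muscle-like cells were at 298 and 264 CPM and splanchnic mesoderm-like cells at 281 and 288, whereas erythroid-like cells were at 87.4 and 61.9. Its ratios in the named classes ran from −0.58 to 0.15, and none had an interval clear of 0, whereas the neural tube progenitor gate gave −0.38 (−0.73 to −0.02). Zyx, which encodes the focal adhesion protein zyxin, had the profile most like it (0.84 and 0.83).

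Lama1, Lamb1 and Lamc1 encode the α1, β1 and γ1 chains of laminin-111, the first laminin of embryonic basement membranes. They lie at chr17:67697259-67822647 (plus strand), chr12:31265234-31329644 (plus strand) and chr1:153218922-153332786 (minus strand). Lama1 had 337 UMIs in WT and 254 in KO, no cell with more than 2, and no class whose interval lay above that of erythroid-like cells. Its class levels could therefore not be ranked at this depth, and its profile correlated between libraries at r = 0.18. Lamb1 was at 94.3 CPM in WT (77.2 to 114) and 69.6 in KO (54.2 to 88.1) endothelial-like cells, where the ratio was −0.44 (−0.90 to 0.01). Dermomyotome and early myogenic-like cells had 16 Lamb1 UMIs in WT and 2 in KO (−2.49, −5.66 to −0.40), the 1 ratio of a laminin in a named class with an interval clear of 0. In the otic and epibranchial placode gate (34 and 25 cells) Lamc1 had 7 and 18 UMIs (1.63, 0.30 to 3.13). Lamc1 was at 179 and 190 CPM in endothelial-like, 165 and 188 in cardiac muscle-like and 169 and 180 in splanchnic mesoderm-like cells, 3 classes with overlapping intervals. It was lowest in erythroid-like cells at 57.4 and 37.8 CPM. There the ratio of −0.60 (−1.37 to 0.11) passed 1.5-fold, as did 6.76% of 5028 genes (3.06% were higher), with an interval that reached 0. The profile most like Lamc1 was that of Slc39a1, a zinc transporter (0.92 and 0.85). For Lama1 and Lamb1, whose own profiles correlated between libraries at r = 0.18 and r = 0.32, the search returned Sox6 and Sec24d, and these matches are not read further.

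Across the 10 named classes, the 9 genes other than Postn gave 89 ratios. Of these, 4 had an interval below 0 and 4 an interval above 0, with no adjustment for the number compared. The share of all genes with such intervals was not computed, so these counts and those of Postn have no reference. Postn had an interval below 0 in 6 classes, of which 3 had 0 KO UMIs, and above 0 in none. Of the 6, splanchnic mesoderm-like cells alone had a WT interval that lay above the erythroid-like one, erythroid-like cells are themselves 1 of the 6, and the dorsal neural tube and roof plate-like value rests on 1 cell, to which a Poisson interval does not apply. The other classes could therefore not be told from the low level shared by cells of the library. Over its 6 classes with UMIs in both libraries its median ratio was −1.84 (5 below 0). It was −1.73 with the 3 classes added whose KO count of 0 was set at the floor of 3 UMIs.

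Another 6 lists of matrix genes, 118 genes in all, were read for comparison, and 76 of the 113 with a measured column reached 200 UMIs. Of these 76, 3 were at least 1.5-fold lower in KO and 0 higher, against 2.02% and 0.371% of all genes. Below 0 lay 56 (73.7%), against 60.8% of all genes, and the median was −0.16 against −0.06. By list the medians were −0.30 for basement membrane (11 genes, 8 below 0), −0.30 for matricellular genes (11, 8 below 0), −0.28 for elastic fibres and microfibrils (11, 10 below 0), −0.20 for hyaluronan and proteoglycans (12, 10 below 0), −0.05 for matrix receptors (14, 8 below 0) and −0.07 for matrix remodelling (17, 12 below 0).

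Dcn, which encodes the collagen-binding proteoglycan decorin, had 149 UMIs in WT and 62 in KO (−1.13, −1.58 to −0.69). Like Postn it was highest in splanchnic mesoderm-like cells, at 29.0 CPM in WT and 13.3 in KO. Gpc4, a glypican, had 149 and 89 UMIs (−0.61, −1.0 to −0.22), and among named classes its WT level was highest in erythroid-like cells at 17.1 CPM, the class that serves as background here. Itga4, the α4 integrin chain that binds fibronectin, had 249 and 123 UMIs (−0.88, −1.21 to −0.57), with 31.7 CPM in WT and 6.67 in KO splanchnic mesoderm-like cells, and its highest WT level, 34.8 CPM, in migrating neural crest-like cells. The most abundant genes of the lists with no gene past 1.5-fold lay closer to 0: Agrn (agrin) at −0.30, Fstl1 (follistatin-like 1) at −0.12, Mfap2 (a fibrillin-binding protein) at −0.10 and Serpinh1 (the collagen chaperone HSP47) at 0.08.

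**Figure D5:**
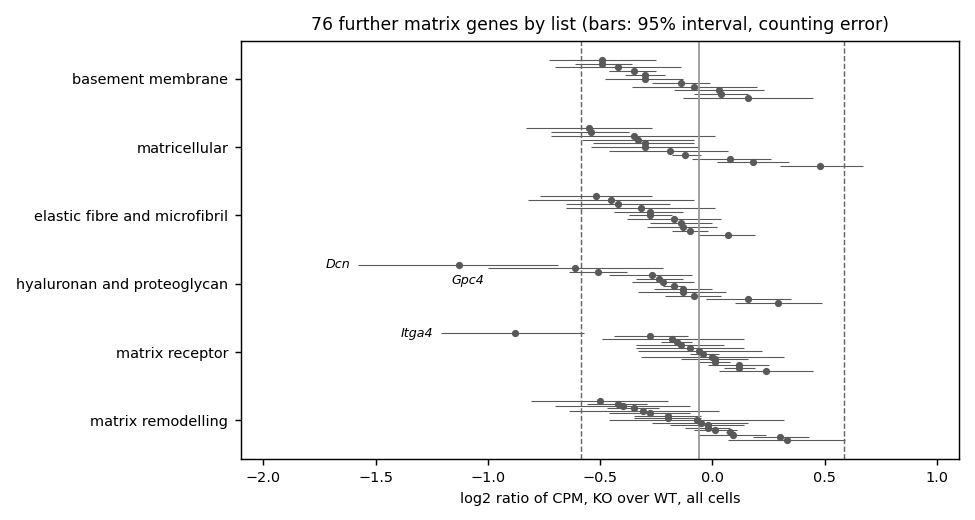
Log2 ratio of CPM of KO over WT in all cells (horizontal axis) for 76 matrix genes in 6 lists (vertical axis). Points are genes, bars 95% intervals of counting error, dashed lines mark 1.5-fold and the grey line the median of all genes at −0.06; Dcn, Itga4 and Gpc4 lie past 1.5-fold lower and no gene past 1.5-fold higher.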

How the data were processed

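The 2 deposited tables hold, per the paper's methods, UMI counts of a 10x 3′ library that the authors scaled to 1 total per cell and transformed to square roots (unit: signal). Cells and genes had been filtered by the authors, with DoubletFinder and an upper UMI limit against doublets, and with mitochondrial and ribosomal genes removed. The submitters' notes name mm10, Cell Ranger 1.3.1 and Scanpy; the methods name a human genome with ZsGreen1, but the gene symbols are of mouse. UMIs were recovered by squaring each value and dividing by the smallest nonzero square of the cell, and 100% of values came out whole within 0.01, which assumes that each cell has a gene with 1 UMI. The total per cell ranged from 533 to 4464 in WT and from 828 to 4588 in KO.

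A gate gene counted as present in a cell where its UMI count had a Poisson probability under 0.1 at the library mean, and a class needed 2 present genes of 1 gate. Check markers were compared with 10 CPM added. CPM sums UMIs over a class. Intervals are exact Poisson (levels), exact binomial (shares) and exact conditional (ratios) at 95%, in Python 3.11.15 with numpy 2.4.6, scipy 1.17.1 and pandas 2.3.3, and cover counting error only. No ratio is given where both libraries have 3 UMIs or fewer. The ratio and its fold calls were run on simulated Poisson counts, the model that the intervals assume. That checks the calculation and not how the intervals behave for counts clumped in few cells, as those of Postn are. Genes with at least 200 UMIs (50 within a class) and 1.5-fold marked the background. By rule, the named genes are the 10 members, the 3 genes most like Postn and 1 most like each other member (Pearson's r of log2 of CPM with 10 added, the smaller of WT and KO), and the lists' genes past 1.5-fold or, where a list had none, its most abundant gene; the genes of Postn-rich cells and of the closing observations lie outside this rule and were picked after their values were seen. The members, lists and gates were chosen with earlier results of these data known. No further doublet caller was run, and annotation is GENCODE vM21. Of the fixed gate genes, 7 had no column.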

Additional observations from a re-analysis of the deposited data

Results flagged for a closer look

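For 3 of the 10 genes the KO over WT ratio had opposite signs in a pair of named classes, with both counting intervals clear of 0. The share of all genes that meet this rule was not computed, so the count has no reference. The difference between the classes was not tested, since each genotype is 1 library. Fn1 was at −0.52 in neuron-like cells (79 UMIs in WT, 63 in KO) and at 0.66 in sclerotome and somite-like cells (121 and 151). Vcan was at −0.68 in endothelial-like and 0.32 in splanchnic mesoderm-like cells, and the interval of the latter reached 0 after thinning to 1000 UMIs (0.13, −0.28 to 0.53) and with a gate of 3 genes (0.28, −0.07 to 0.64). The endothelial-like Vcan level could not be told from that of erythroid-like cells, where the ratio was −0.46. Sparc was at −0.39 in splanchnic mesoderm-like and 0.29 in endothelial-like cells. Intervals were not adjusted for the 89 ratios from which these were taken.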

How the results depend on the processing

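The Postn ratios over all cells and in splanchnic mesoderm-like cells kept their sign under every alternative run; ratios in other classes were not recomputed. Among smaller ratios, Fn1 and Lamc1 over all cells went from −0.03 to 0.03 under either other scaling. In splanchnic mesoderm-like cells Fn1, Hapln1, Has2, Fbn2, Lamb1 and Lamc1, all with intervals that span 0, changed sign under at least 1 alternative; with thinning Lamb1 went from 0.23 to −0.37, Has2 from −0.31 to 0.20 and Lamc1 from 0.09 to −0.18. The all-cell Postn ratio of −1.50 stayed between −1.64 and −1.43 under all alternatives run, which include leaving out the deepest 5% of cells (−1.46), an alternative chosen after seeing the data. In splanchnic mesoderm-like cells the ratio of −1.98 moved to −3.03 with cells thinned to 1000 UMIs and to −2.56 with a gate of 3 genes, where Postn stood at 173 CPM in WT and 29.3 in KO. Subtracting the erythroid-like level (−1.86) was also chosen after seeing the data. The share of cells with a Postn UMI, 3.90% in WT and 1.42% in KO, was 2.58% and 0.840% after thinning, which left out 1361 WT and 125 KO cells. Genes at least 1.5-fold lower numbered 2012 with a minimum of 1 UMI in each library and 55 with 1000 UMIs, and higher ones 1227 and 13, and 59 under median-of-ratios scaling. For the other genes 13 values moved beyond their counting interval and 113 did not, among the former Lamc1 over all cells from −0.03 to −0.26 after thinning, Vcan in splanchnic mesoderm-like cells from 0.32 to 0.72 and Lamb1 there from 0.23 to 1.08 after subtraction of the erythroid-like level; the cause was not tested. The alternative with Scrublet was not run. No paired analysis was possible because each genotype is 1 library. The class levels of Lama1 could not be told from those of erythroid-like cells, and the part of depth in this was not tested.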

Other observations

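The following genes of the 6 lists did not pass 1.5-fold and were picked after their values were seen, and differences between them were not tested. Highest levels are those among the 10 named classes. Of the thrombospondins, multimeric matricellular proteins, Thbs3 had 421 UMIs in WT and 536 in KO (0.48, 0.30 to 0.67), the highest ratio of the 76 genes, and its KO level was highest in floor plate-like cells at 89.1 CPM. Thbs1 stood at 320 and 232 UMIs (−0.33, −0.58 to −0.08) and Thbs4 at 282 and 176 (−0.55, −0.83 to −0.27). Thbs4 was highest in cardiac muscle-like cells of both libraries, at 104 CPM in WT and 83.3 in KO. Tnc, the crest-associated glycoprotein tenascin-C, had 690 and 432 UMIs (−0.54, −0.72 to −0.37) and was highest in splanchnic mesoderm-like cells, at 110 and 79.0 CPM.

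The basement membrane genes Nid1 and Nid2 (nidogens) stood at −0.14 (−0.27 to −0.01) and −0.49 (−0.61 to −0.36). Of the inhibitors of matrix proteases, Timp1 was at −0.31 (−0.64 to 0.03), Timp2 at 0.09 (−0.06 to 0.24) and Timp3 at 0.30 (0.18 to 0.43). The matrix metalloproteinase genes ran from −0.42 (Mmp14, −0.56 to −0.29) to 0.33 (Mmp16, 0.07 to 0.59), with Mmp11 at −0.40, Mmp2 at −0.20 and Mmp15 at −0.02 between them.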
